A study of Mus musculus with 8 samples.

Results

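*Tex101*, *Lypd4* and *Dmrtc2* lie on mouse chromosome 7 with *Lypd3* and *Rps19* among their neighbours, and these 5 genes were followed on the arrays of *L3mbtl2*-KD and control ESCs. The members were selected on measured values of the same contrast, since *Tex101*, *Lypd4* and *Dmrtc2* stood out by their higher signal in *L3mbtl2*-KD ESCs, and *Lypd3* and *Rps19* were taken as genes beside them. Their differences between the groups are therefore descriptions and carry no test. The 5 members were 5 of 19751 genes that the array names, and each had 1 probe. Of these, 4 passed the filter for testing, which 13653 genes passed in all, and *Lypd3* did not.

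The study knocked down *L3mbtl2* in male VV3 ESCs, a mouse line with a *Vasa*::Venus reporter that lights up when *Ddx4* (*Vasa*) is switched on, grown with serum and LIF on mitomycin C-treated STO feeder cells. The 4 *L3mbtl2*-KD samples received the siRNA Mm_L3mbtl2_4 and the 4 control samples the AllStars non-silencing siRNA. Total RNA of each sample was labelled with Cy3 and hybridised to an array of its own. The study describes the profiled knockdown cells as Vasa-positive cells purified by FACS and names no such selection for the control cells, so siRNA and sort cannot be told apart. The replicates are said to be biological. The RNA came from bulk cells, in which a change in the number of cells that express a gene and a change in RNA per cell cannot be told apart.

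L3MBTL2 is a subunit of a non-canonical Polycomb complex that also holds MGA, MAX, PCGF6 and E2F6 and keeps many germ cell genes silent in ESCs. TEX101 and LYPD4 are membrane-bound proteins of the LY6/uPAR family made in male germ cells, and both are needed for mouse sperm to fertilise. DMRTC2, also called DMRT7, is a DM-domain protein that gathers on the XY body of pachytene spermatocytes and is needed for male meiosis, whereas LYPD3 is a LY6/uPAR protein of stratified epithelia and RPS19 a protein of the small ribosomal subunit present in every cell type.

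The siRNA target was measured first. Signals are given on the log2 scale relative to the 75th percentile of each array, so that 0 stands for a probe at that percentile. *L3mbtl2* was at -1.45, -1.26, -1.58 and -1.73 in *L3mbtl2*-KD replicates 1 to 4 and at 0.27, -0.18, -0.21 and -0.31 in control replicates 1 to 4. Every knockdown array lay below every control array. The log2 difference (*L3mbtl2*-KD minus control, as throughout) was -1.40 with a standard error (SE) of 0.15, or 2.64-fold lower, with an adjusted p of 0.000945 in limma (n = 4 per group). It was -1.40 on either of the 2 slides. *Ddx4*, the gene behind the reporter used for the sort, rose by 2.83 (SE 0.09, adjusted p = 4.88e-06, limma), from a mean of 0.92 to 3.75, and its change is not independent of the sort.

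*Tex101* encodes a GPI-anchored protein of spermatocytes and spermatids. Its promoter region was examined because *Tex101* had the largest difference of the members. Binding of a repressor complex there was not measured. The RefSeq window, on the minus strand at chr7:24672001-24672300 (GRCm38.p6), runs from 250 bases before to 50 bases after the transcription start. Capitals mark every CCAAT or its reverse ATTGG.
Tex101: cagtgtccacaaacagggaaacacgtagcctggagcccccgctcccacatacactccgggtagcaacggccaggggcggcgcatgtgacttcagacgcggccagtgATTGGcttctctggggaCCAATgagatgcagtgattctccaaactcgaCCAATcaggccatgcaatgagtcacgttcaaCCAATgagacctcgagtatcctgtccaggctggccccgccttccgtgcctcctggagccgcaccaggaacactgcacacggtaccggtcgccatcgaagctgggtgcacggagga
The window held 4 such boxes, and 1.06% of the 32851 promoter windows of the RefSeq table held 4 or more. This motif was chosen after the sequences had been seen.

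In *L3mbtl2*-KD replicates 1 to 4 the *Tex101* probe (NM_019981) was at 5.02, 4.78, 5.09 and 5.34. In control replicates 1 to 4 it was at -2.34, -3.39, -3.70 and -3.19. It was well above background on all 8 arrays and the groups lay far apart. On the linear scale the processed signal ran from 21694 to 37672 in the knockdown and from 78.5 to 172 in the control. The means were 5.06 ± 0.23 and -3.16 ± 0.58 (SD, n = 4 each), a log2 difference of 8.21 (SE 0.27) or 297-fold, and with normexp background correction it was 7.54. Within slide 1 the difference was 7.77 and within slide 2 it was 8.66, and with slide as a block it was 8.21 (SE 0.29).

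*Lypd4* and *Dmrtc2* lie on opposite strands and point away from each other. The transcription starts that the RefSeq promoter table uses are 366 bases apart, and the windows, chr7:24869642-24869941 on the minus strand for *Lypd4* and chr7:24869807-24870106 on the plus strand for *Dmrtc2* (GRCm38.p6), share 135 bases. By the outermost starts in the RefSeq gene table, the *Lypd4* window covers 17 bases before the gene and 283 within it, and that of *Dmrtc2* 10 before and 290 within, so most of either window lies inside its gene and the genes overlap. Both are printed because the pair was higher together in the knockdown. Capitals mark CCAAT or ATTGG and, near the 3′ end of the *Dmrtc2* window, the E2F motif GCGGGAA.
Lypd4: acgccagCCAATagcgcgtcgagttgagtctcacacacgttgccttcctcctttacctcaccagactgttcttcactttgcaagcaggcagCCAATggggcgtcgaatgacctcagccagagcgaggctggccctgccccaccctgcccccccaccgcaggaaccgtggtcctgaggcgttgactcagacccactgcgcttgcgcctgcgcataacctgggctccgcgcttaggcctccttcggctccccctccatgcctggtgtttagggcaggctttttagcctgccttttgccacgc
Dmrtc2: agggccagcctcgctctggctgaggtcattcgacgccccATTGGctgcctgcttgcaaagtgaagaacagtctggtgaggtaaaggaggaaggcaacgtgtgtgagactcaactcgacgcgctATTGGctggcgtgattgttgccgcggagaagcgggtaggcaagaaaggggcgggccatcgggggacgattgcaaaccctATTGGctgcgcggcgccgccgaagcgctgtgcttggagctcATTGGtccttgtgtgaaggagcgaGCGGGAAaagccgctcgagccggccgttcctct
The *Lypd4* window held 2 CCAAT boxes and the *Dmrtc2* window 4, and the 2 boxes of *Lypd4* lie in the shared stretch and are counted in both. Of all promoter windows, 11.7% held 2 or more.

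*Lypd4* (NM_182785) was at -0.93, -1.98, -0.41 and -0.11 in *L3mbtl2*-KD replicates 1 to 4 and at -5.78, -7.36, -6.95 and -6.94 in control replicates 1 to 4. The groups did not overlap. The probe was well above background on all 4 knockdown arrays but on only 1 of the 4 control arrays, replicate 1, so its control level is poorly fixed. The means were -0.86 ± 0.82 and -6.76 ± 0.68 (SD, n = 4 each), a log2 difference of 5.90 (SE 0.45) as measured. With the 3 other control arrays set at the lowest signal well above background on each, it was 4.72, or 26.4-fold, so the size is not exact. The measured difference was 5.12 within slide 1 and 6.68 within slide 2, and 5.90 (SE 0.46) with slide as a block. With normexp background correction it was 3.16 (SE 0.30).

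*Dmrtc2* (NM_027732) was at 0.17, -0.14, 0.49 and 0.58 in *L3mbtl2*-KD replicates 1 to 4, against -2.19, -2.25, -2.37 and -2.37 in control replicates 1 to 4. All 8 arrays were well above background, the control arrays lay close together, and the groups did not overlap. The means were 0.27 ± 0.33 and -2.30 ± 0.09 (SD, n = 4 each), which gave a log2 difference of 2.57 (SE 0.16) or 5.95-fold. It was 2.24 within slide 1 and 2.91 within slide 2, and 2.57 (SE 0.15) with slide as a block. Of the 5 members, 3 thus met the cut-off by which other genes are called higher, a change of over 2-fold at an adjusted p under 0.05, and 0 that for lower. For the members this only describes the values that they were chosen by, and *Lypd4* entered through the knockdown arrays alone. By that rule 340 of 13653 genes (2.49%) were called higher and 438 (3.21%) lower, or 778 (5.70%) in either direction. Since the members were chosen by this contrast, nothing is read from their count.

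*Rps19*, the gene on the far side of *Dmrtc2*, was not called. Its probe (NM_023133) was at 5.83, 6.05, 6.10 and 6.17 in *L3mbtl2*-KD replicates 1 to 4 and at 5.89, 6.18, 6.19 and 6.25 in control replicates 1 to 4. The groups overlapped. The log2 difference was -0.09 (SE 0.11), from means of 6.04 ± 0.15 and 6.12 ± 0.16 (SD, n = 4 each), and it was -0.10 within slide 1 and -0.08 within slide 2. Paired by replicate number, it was -0.06, -0.14, -0.09 and -0.07 in replicates 1 to 4, and the SE was 0.04 with replicate number as a block.

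*Lypd3*, the gene next to *Tex101*, was near the limit of the array in both groups. Its probe (NM_133743) was at -6.03, -5.61, -5.26 and -5.17 in *L3mbtl2*-KD replicates 1 to 4 and at -5.56, -5.53, -5.53 and -4.45 in control replicates 1 to 4. It was well above background on 1 of 4 knockdown arrays and 2 of 4 control arrays, and the groups overlapped. No fold is given for it.

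**Figure D1:**
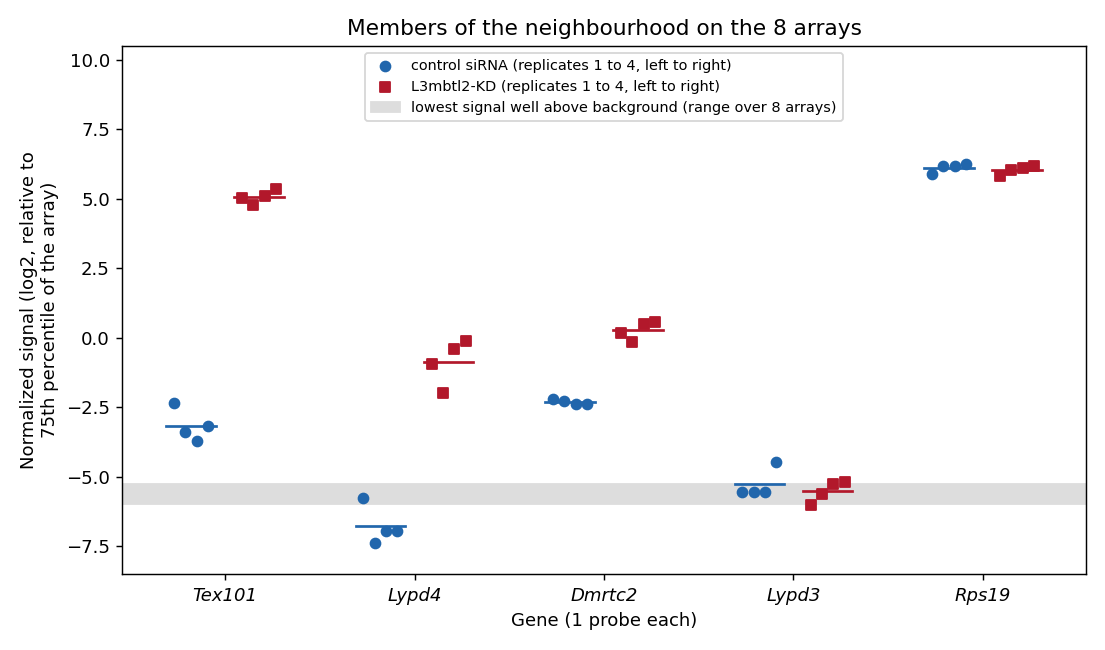
Normalized log2 signal of the 5 members on each of the 8 arrays. Points are single arrays, in the order of replicates 1 to 4 from left to right, horizontal lines are group means (n = 4), and the grey band spans the lowest signal well above background over the arrays. The groups lie apart for *Tex101*, *Lypd4* and *Dmrtc2* and overlap for *Lypd3* and *Rps19*.

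Within the knockdown group, 3 of the 5 members placed the arrays in the same order. Among the 4 *L3mbtl2*-KD arrays, *Tex101*, *Lypd4* and *Dmrtc2* were each lowest in replicate 2, followed by replicates 1, 3 and 4. This order was not particular to the members, since *Prr19* and *Mael*, described below, had it too. *L3mbtl2* itself ran in the opposite order on these arrays, highest in replicate 2 at -1.26 and lowest in replicate 4 at -1.73. *Rps19* was also highest in replicate 4 but lowest in replicate 1. No order is read for *Lypd3*, which was well above background on only 1 of these 4 arrays. Replicates 1 and 2 shared a slide, as did replicates 3 and 4, and an order of 4 arrays was not tested. In the control, replicate 1 was the highest array for *Tex101*, *Lypd4*, *Dmrtc2* and *L3mbtl2*, but the lowest for *Rps19*, which was highest in replicate 4.

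The genes around the members were then examined to see how far along the chromosome the higher signal reached. Counting the protein-coding genes between the outermost members and the 20 beyond each end, there were 45 neighbours, of which 41 had a probe and 30 were tested. *Tex101* and *Lypd4*, whose promoter windows lie 197 kb apart, are separated by 5 genes, *Gm1096*, *Lypd10*, *Lypd11*, *Cd177* and *Ceacam10*. Of these *Gm1096* had no probe and the other 4 were too dim to test. Whether the stretch between *Tex101* and *Lypd4* changed could therefore not be measured. *Ceacam10*, next to *Lypd4*, was above background on 1 array of each group. *Cd79a*, next to *Rps19*, was above background on 1 control array and no knockdown array. *Phldb3*, next to *Lypd3*, differed by -0.48 (SE 0.16, adjusted p = 0.0698, limma), or 1.40-fold lower, so it was also under 2-fold. Over the 15 alternatives its difference lay between -0.57 and -0.28 and its adjusted p between 0.00963 and 0.156 (limma). The other probe of *Phldb3* was not well above background on any array.

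Of the 30 tested neighbours, 2 were called, 1 in each direction, and 28 were not. The neighbours' median log2 difference was -0.12, beside -0.01 over all genes tested, and it was -0.14 within slide 1 and -0.08 within slide 2 (-0.07 with normexp and -0.10 with quantile normalization). The called share of 6.67% was near the 5.70% of all genes. *Prr19*, which acts in meiotic crossing over, rose and lies 15 places beyond *Rps19*. It was at 0.45, 0.35, 0.90 and 1.12 in *L3mbtl2*-KD replicates 1 to 4 and at -2.13, -2.73, -2.50 and -2.03 in control replicates 1 to 4, with no overlap. The difference was 3.05 (SE 0.22, adjusted p = 0.000159, limma), or 8.30-fold, with 2.83 within slide 1 and 3.28 within slide 2.

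*Plaur*, which encodes the urokinase receptor and belongs to the LY6/uPAR family, was the called neighbour that fell. It was at -2.17, -1.28, -1.29 and -2.08 in *L3mbtl2*-KD replicates 1 to 4 and at -1.15, -0.43, -0.14 and -0.36 in control replicates 1 to 4. The difference of -1.19 (SE 0.28) had an adjusted p of 0.0227 in limma and was -0.94 within slide 1 and -1.43 within slide 2. The call was lost without the filter on dim probes and when any 1 of control replicates 2, 3 and 4 or *L3mbtl2*-KD replicates 1 and 4 was left out, and over the 15 alternatives the adjusted p ran from 0.00508 to 0.0674. The uncalled neighbours lay between -0.84 (*Zfp108*) and 0.43 (*Tescl*), both named after their values were seen.

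**Figure D2:**
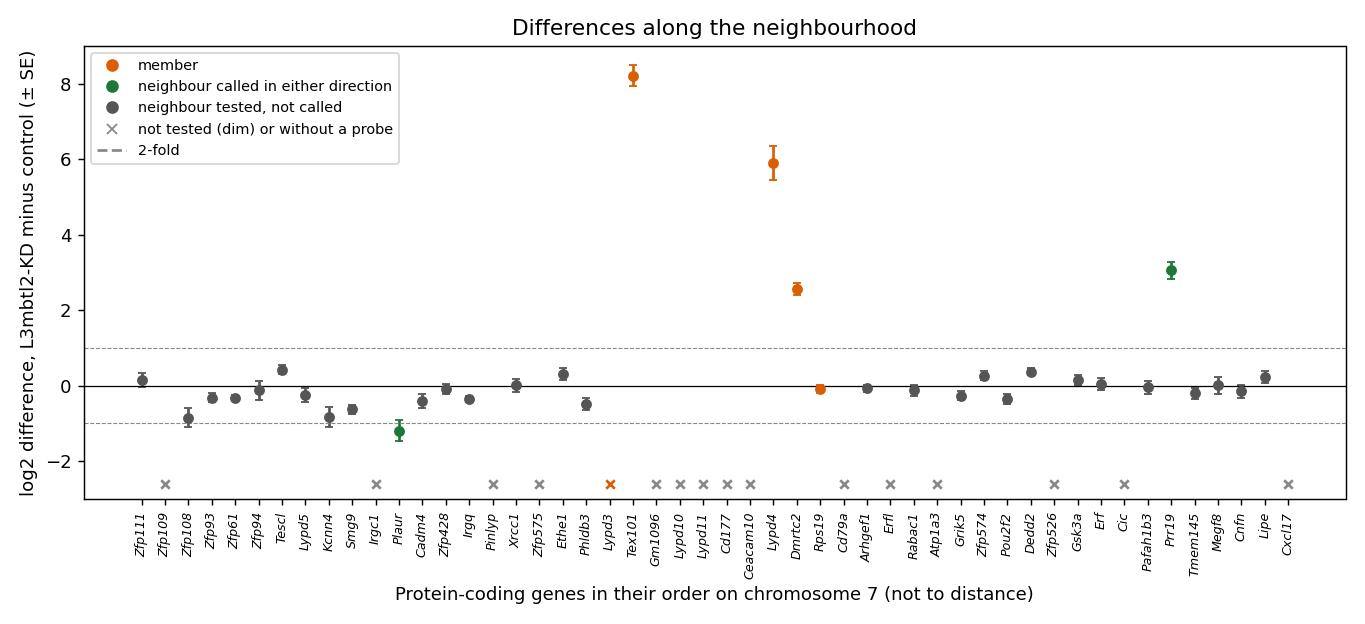
Log2 difference, *L3mbtl2*-KD minus control (± SE, 4 arrays per group), of the members and their neighbours, in gene order along chromosome 7 and not to distance. Members are orange, called neighbours green and uncalled ones dark grey, and crosses mark genes that were too dim to test or had no probe. *Tex101* at 8.21, *Lypd4* at 5.90, *Prr19* at 3.05 and *Dmrtc2* at 2.57 stand above the 2-fold line.

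The promoter windows were searched for the letters that partners of L3MBTL2 are known to bind, on both strands. The E-box CACGTG was in none of the *Tex101*, *Lypd4*, *Dmrtc2* and *Lypd3* windows and in 1 of the 3 *Rps19* windows, and 7.15% of all windows held it. The E2F motif (GCGGGAA or TTCCCGC) was in the *Dmrtc2* window, once, and in 2 of the *Rps19* windows, against 4.60% of all windows. The T-box motif (TCACACCT or AGGTGTGA) was in no window of a member, and 1.28% of all windows held it. The CCAAT box, which is not among those letters and was chosen after the sequences had been seen, was in none of the *Lypd3* and *Rps19* windows and was found 2 times in that of *Prr19*, whereas 37.4% of all windows held at least 1. A match is a description of these letters only.

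CpG dinucleotides were counted as well, a choice made after the sequences had been seen. There were 19 in the *Tex101* window, 18 in that of *Lypd4*, 26 in that of *Dmrtc2* and 12 in that of *Lypd3*, and from 23 to 39 in those of *Rps19*. The median over all promoter windows was 7. Each member's window thus lay above that median, those of *Lypd3* and *Rps19* included. The share of all windows with fewer CpGs was 71.9% for *Tex101*, 70.3% for *Lypd4*, 83.1% for *Dmrtc2* and 60.4% for *Lypd3*. For the *Rps19* windows it ran from 78.5 to 95.6%.

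Next, the rest of the LY6/uPAR family was examined beside *Tex101*, *Lypd4* and *Lypd3*. These cysteine-rich proteins sit on the cell surface or are secreted, and many are found on sperm, leukocytes or epithelia. Of 47 other family genes, 39 had a probe and 20 were tested. Of these 0 were called higher, 1 (*Plaur*) lower and 19 neither (5% called, beside 5.70% of all genes). At an unadjusted p under 0.05, limma had 3 of 20, beside 5267 of 13653 (38.6%) over all genes. The median log2 difference was -0.20, against -0.01 over all genes, with -0.22 within slide 1 and -0.14 within slide 2, but it was only -0.06 with normexp and -0.11 with quantile normalization. *Ly6k*, a partner of TEX101 in testis that is named after its value was seen, was the highest at 0.97 (SE 0.18, adjusted p = 0.00892, limma), just short of 2-fold. It was called under quantile normalization and when control replicate 1 or *L3mbtl2*-KD replicate 2 or 3 was left out.

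Another list held genes for partners of TEX101 and for the maturation of ADAM3, a sperm surface protein. Of its 19 genes, 9 were tested, and 1 was called higher, 0 lower and 8 neither (11.1% called, beside 5.70% of all genes). At an unadjusted p under 0.05 there were 7 (77.8%), beside 38.6%. The median was 0.01, as against -0.01 for all genes, with 0.08 within slide 1 and 0.02 within slide 2, and it depended on the scaling, at 0.07 with normexp and 0.20 with quantile normalization. *Dpep3*, a membrane dipeptidase that binds TEX101, was at -2.39, -2.88, -2.99 and -2.58 in *L3mbtl2*-KD replicates 1 to 4 and at -5.55, -5.06, -5.67 and -5.85 in control replicates 1 to 4. *Dpep3* entered the test through the knockdown arrays alone, so its call only describes its values. With probes above background on all arrays, 0 of these genes were called. *Dpep3* was higher by 2.82 (SE 0.19) as measured, with 2.66 within slide 1 and 2.97 within slide 2. Its probe was well above background on 2 of the 4 control arrays, and with the others at the lowest signal well above background the difference was 2.70. With normexp it was 1.41. *Adam3* itself and 9 more genes were too dim to test.

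The DMRT family is named after the DM DNA-binding domain, and several of its genes act in sex determination or germ cells. Whether each listed gene encodes that domain was not examined. Of 10 family genes other than *Dmrtc2*, 9 had a probe and 6 were tested, with 2 called higher, 0 lower and 4 neither (33.3% called, beside 5.70% of all genes). At an unadjusted p under 0.05 there were 5 (83.3%), beside 38.6%. The median difference was 0.65 (0.65 within each slide, 0.42 with normexp and 0.75 with quantile normalization) beside -0.01 over all genes. *Dmrtb1*, which acts where spermatogonia enter meiosis, rose by 1.40 (SE 0.18, adjusted p = 0.00175, limma), with 1.10 within slide 1 and 1.69 within slide 2. *Dmrtc1c2* rose by 1.76 (SE 0.27, adjusted p = 0.00374, limma) on its brighter probe and by 1.75 on the other, with 1.54 and 1.99 within slides 1 and 2 on the former. It is 1 of several closely related copies whose transcripts these probes may not separate. Another copy, *Dmrtc1b*, named after its value was seen, went the other way at -0.88 (SE 0.25), with -0.63 and -1.14 within slides 1 and 2. It was above background on 3 of 4 knockdown arrays, so it entered the test through the control arrays alone. It was called only when *L3mbtl2*-KD replicate 1 or 2 was left out.

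DMRTC2 works on the XY body, so genes of the meiotic axis and of sex-chromosome silencing were examined. Of 17 listed, 16 were tested, and 2 were called higher, 1 lower and 13 neither (18.8% called, beside 5.70% of all genes; 43.8% at an unadjusted p under 0.05, beside 38.6%), with a median of 0.08 (0.05 within slide 1 and 0.08 within slide 2, 0.08 with normexp and 0.06 with quantile normalization) beside -0.01 over all genes. *Sycp1*, which encodes the central filament of the synaptonemal complex, rose by 1.79 (SE 0.25, adjusted p = 0.00264, limma), with 1.51 and 2.07 within slides 1 and 2. *Hormad2*, a protein of unsynapsed axes, rose by 1.18 (SE 0.27, adjusted p = 0.0206, limma), with 0.96 and 1.40 within slides 1 and 2. Its call was lost under 5 of 15 alternatives, namely normexp, no filter on dim probes, and without control replicate 3, control replicate 4 or *L3mbtl2*-KD replicate 1, and its adjusted p ran from 0.000730 to 0.0583. Its paralogue *Hormad1* went the other way and fell by 1.17 (SE 0.12, adjusted p = 0.000641, limma) on its brighter probe and by 0.98 on the other, with -1.12 and -1.21 within slides 1 and 2. The *Hormad1* call was lost with normexp, at a log2 difference of -0.96.

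The small-subunit ribosomal protein genes were taken as the family of *Rps19*. All 31 with a probe, of 32 listed besides *Rps19*, were tested with limma. In either direction 0 were called, beside 5.70% of all genes. At an unadjusted p under 0.05 there were 7 (22.6%), beside 38.6% of all genes. Their differences ran from -0.23 to 0.11 with a median of -0.07 (-0.06 within slide 1 and -0.07 within slide 2, -0.08 with normexp and -0.04 with quantile normalization), so the -0.09 of *Rps19* fell inside this range. *Rps29* had the largest difference, at -0.23 (SE 0.07, adjusted p = 0.0620, limma) on its brightest probe, -0.16 on the next and -0.35 on the last, whose adjusted p was 0.0254.

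**Figure D3:**
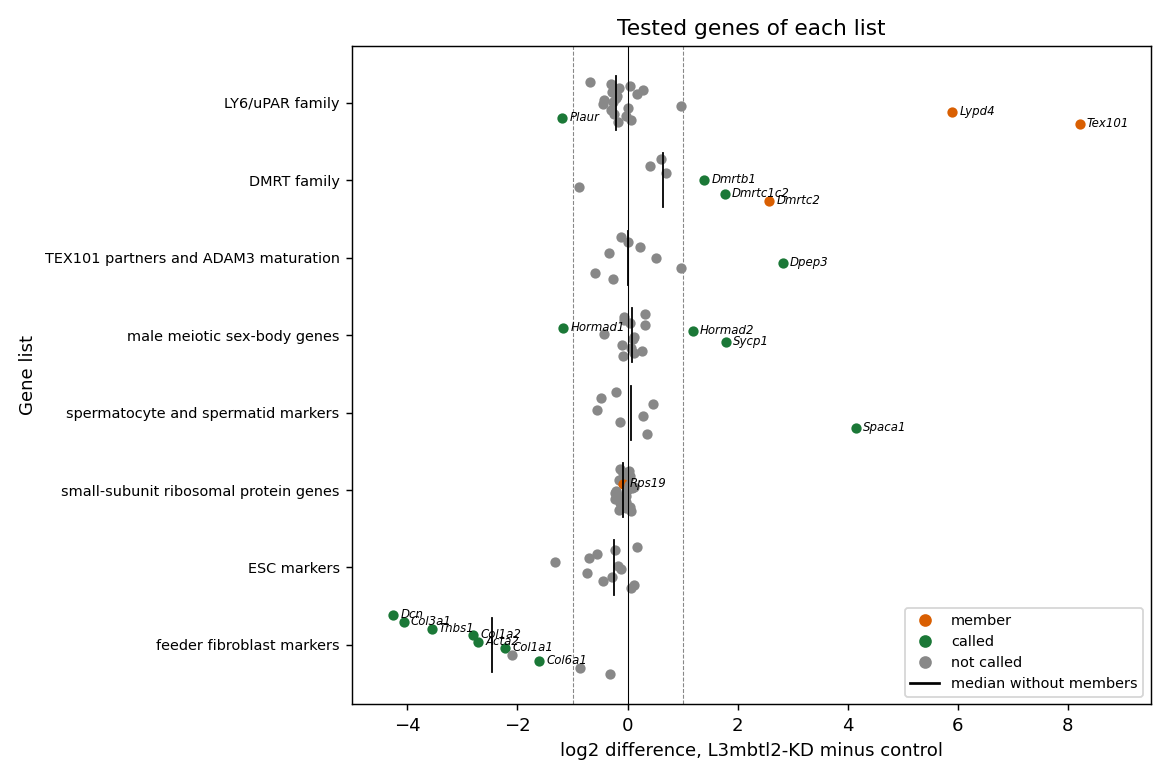
Log2 difference, *L3mbtl2*-KD minus control, of each tested gene of the 8 lists, with 1 probe per gene and 4 arrays per group. Orange points are members, green points called genes and grey points genes not called, and black bars are medians without the members. *Tex101* at 8.21 and *Lypd4* at 5.90 lie outside the range of the other tested LY6/uPAR genes, which runs from -1.19 to 0.97.

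Since *Tex101*, *Lypd4* and *Dmrtc2* are genes of meiotic and post-meiotic male germ cells, markers of those cells were measured. Of 18 such markers, 8 were tested, and 1 was called higher, 0 lower and 7 neither (12.5% called, beside 5.70% of all genes; 12.5% at an unadjusted p under 0.05, beside 38.6%), with a median of 0.07 (0.10 within slide 1 and 0.07 within slide 2, 0.12 with normexp and 0.19 with quantile normalization) beside -0.01. *Spaca1*, which encodes a membrane protein of the acrosome, was not well above background on any control array. *Spaca1* thus entered the test through the knockdown arrays alone, and its call only describes its values. With probes above background on all arrays, 0 of these markers were called. *Spaca1* was at least 8.91-fold higher on 1 probe and at least 6.74-fold on the other. These bounds set the knockdown mean against the lowest signal well above background on each control array, or the probe's own where higher. They hold for this processing only, as with normexp the log2 differences were 1.48 and 1.39, or 2.79-fold and 2.62-fold. *Pgk2*, *Prm1*, *Tnp2*, *Odf1*, *Akap4*, *Spata16*, *Crisp2*, *Tssk1*, *Tssk2* and *Zpbp* were too dim to test in both groups. The summed linear signal of the 8 tested markers, in multiples of the 75th percentile, was 1.499, 1.618, 1.623 and 1.592 in *L3mbtl2*-KD replicates 1 to 4 and 1.407, 1.383, 1.353 and 1.401 in control replicates 1 to 4. By group mean its brightest gene was *Hspa2* in the knockdown and *H1f6*, named after its value was seen, in the control.

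Markers of the ESCs and of their feeder cells were set beside these values. Of 12 ESC markers, all tested with limma, 0 were called, beside 5.70% of all genes. An unadjusted p under 0.05 was found for 5 (41.7%), beside 38.6% of all genes. *Klf4*, named after its value was seen, was the only one with an adjusted p under 0.05, at -0.70 (SE 0.18, adjusted p = 0.0274, limma), which is under 2-fold, with -0.67 and -0.74 within slides 1 and 2. The median was -0.25 (-0.29 within slide 1 and -0.22 within slide 2, -0.25 with normexp and -0.26 with quantile normalization), and the summed signal, led by *Dppa5a*, was 328, 365, 320 and 338 in the knockdown and 349, 365, 344 and 334 in the control for replicates 1 to 4. *Nanog* had the largest difference at -1.32 (SE 0.49), with an adjusted p of 0.0962 (limma), -2.11 within slide 1 and -0.52 within slide 2, and the groups overlapped. With normexp it was -0.69.

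Feeder fibroblast markers were lower. Of 12, 10 were tested, and 0 were called higher, 7 lower and 3 neither (70% called, beside 5.70% of all genes; 90% at an unadjusted p under 0.05, beside 38.6%). The median was -2.47 (-1.999 within slide 1 and -2.97 within slide 2), -1.46 with normexp and -2.42 with quantile normalization. *Col6a1*, named after its value was seen, lost its call under 9 of 15 alternatives, namely normexp, quantile normalization, no filter on dim probes, and without control replicate 2, 3 or 4 or *L3mbtl2*-KD replicate 1, 3 or 4. Among probes above background on all arrays, 4 feeder markers were called in place of 7. *Dcn* and *Col3a1*, both of the extracellular matrix, were not well above background on any knockdown array. Both thus entered the test through the control arrays alone, and their calls only describe their values. The fall was 12.1-fold or more for *Dcn* and 7.81-fold or more for *Col3a1*. With normexp they were at -1.88 and -1.55, or 3.67-fold and 2.92-fold lower, so these bounds too hold for this processing only. *Thbs1* was above background on 1 of 4 knockdown arrays, so the size of its difference is not exact. It too entered the test through the control arrays alone, and its call only describes its values. It differed by -3.56 (SE 0.55) as measured, with -3.24 and -3.88 within slides 1 and 2. With the other 3 knockdown arrays at the lowest signal well above background its difference was -2.79, and with normexp it was -1.37. *Col1a2* fell by 2.81 (SE 0.44, adjusted p = 0.00439, limma), with -2.23 and -3.40 within slides 1 and 2. The summed signal of the 10 tested markers was 1.257, 1.392, 1.203 and 1.002 in *L3mbtl2*-KD replicates 1 to 4 and 3.022, 5.890, 4.627 and 7.084 in control replicates 1 to 4. By group mean the brightest was *Col1a2* in the control but in the knockdown *Col5a1*, which was not called and is named after its value was seen. *Postn* and *Lum* were too dim to test. The part that this lower feeder signal plays in the members' differences was not tested.

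Finally, the genes whose signal followed that of *Tex101* most closely over the 8 arrays were sought among 13607 other tested genes with a value on every array. The 5 with the highest Pearson correlation were *Plekhg4* (0.999), *Zcwpw1* (0.998), *Gm2012* (0.998), *Sgk1* (0.996) and *Mael* (0.996). The arrays form 2 separate groups, so these values mostly reflect how tightly each gene's groups cluster, and they are given as a description. The differences below describe these genes too and carry no test, since likeness to *Tex101* on the same arrays chose them. *Mael*, of the piRNA pathway of germ cells, differed by 2.48 (SE 0.17) and *Zcwpw1*, a reader of histone methylation in meiosis, by 3.65 (SE 0.15). *Plekhg4* differed by 2.49 (SE 0.09) and the predicted gene *Gm2012* by 3.45 (SE 0.17). *Gm2012* was above background on 2 of 4 control arrays, and its difference was 3.39 with the others at the lowest signal well above background and 1.93 with normexp. *Sgk1*, a kinase induced by serum and glucocorticoids, differed by 0.74 (SE 0.07), which is under 2-fold. Within slides 1 and 2 the differences were 2.25 and 2.71 for *Mael*, 3.56 and 3.74 for *Zcwpw1*, 2.39 and 2.59 for *Plekhg4*, 3.31 and 3.59 for *Gm2012* and 0.68 and 0.80 for *Sgk1*.

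**Figure D4:**
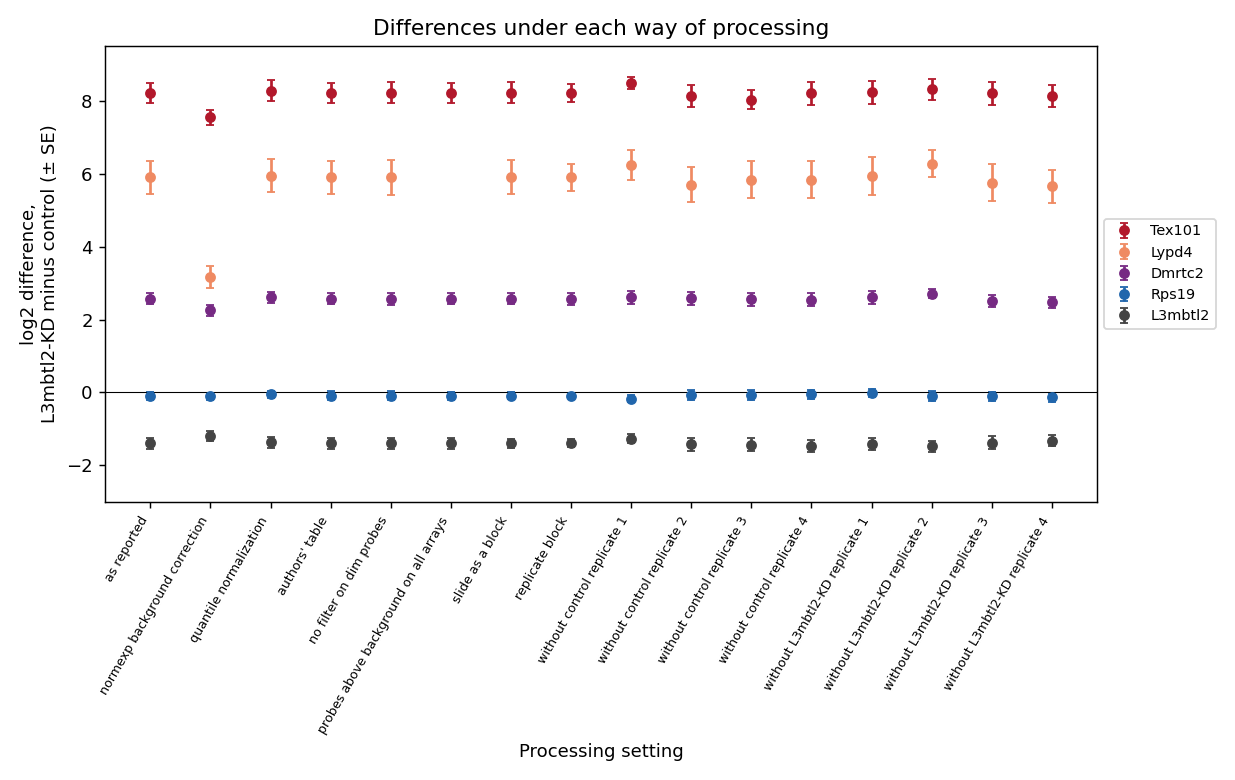
Log2 difference, *L3mbtl2*-KD minus control (± SE), of the 4 tested members and *L3mbtl2* as reported and under each alternative way of processing, including the loss of each replicate in turn. *Lypd4* moved from 5.90 to 3.16 under normexp and has no point where probes had to be above background on all arrays. *Tex101* stayed between 7.54 and 8.49.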

How the data were processed

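The 8 one-colour Agilent mouse arrays (array build mm9) were deposited as scanner output, in which the authors' Feature Extraction run gave each spot a background-subtracted intensity. No spot was saturated. Per array, 59.5 to 66.6% of spots were well above background, and 4 arrays per group limit the precision. Control spots and outlier flags were left out, spots of 1 probe were averaged, and log2 intensity minus the 75th percentile of the array was used. The authors' deposited log2 table, an alternative here, correlated with these values at 0.999 to 1.00 after centring, and its columns had medians from -0.06 to 0.08, so that direction and log base were settled from the data while the authors' centring step is not stated. Accessions were named through the RefSeq gene table (26055 of 39429 probes, 19751 genes), and chromosome order came from the same table (GRCm38.p6). All 5 members matched the RefSeq promoter table, which gave the sequences.

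A probe was tested if the scanner marked it well above background on all 4 arrays of either group (23525 probes, 13653 genes; 85 probes lacked a value on some array) with limma 3.58.1 (lmFit, eBayes; R 4.3.3) and Benjamini-Hochberg adjustment over all of them, after a check on simulated data. A gene was called when at least 1 probe changed over 2-fold at an adjusted p under 0.05. Medians used 1 probe per gene, that with the highest mean, and were the same with genes at their bounds. The genes named were the members, *L3mbtl2*, *Ddx4*, called and adjacent neighbours, up to 4 called genes per list with the largest differences (or the largest difference where none was called), and the 5 most like *Tex101*. The members and lists were chosen with earlier results of these data known.

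Both groups were on each slide, yet no position on a slide was used by both, so position and group cannot be told apart. The labels give both groups the same replicate numbers, and these pair the samples: deviations from the group means correlated at 0.582, 0.538, 0.434 and 0.377 for the same number and at -0.437 to 0.247 otherwise. Alternatives were normexp (offset 50, on the median signal) followed by the same percentile scaling, quantile normalization, the authors' table, no filter, probes above background on all 8 arrays, slide and replicate number as blocks, leaving out each replicate, a 1.5-fold threshold and a window of 10 genes. The listed genes H2afx and Hist1h1t were looked up under their present symbols *H2ax* and *H1f6*. Protein sequences were not analysed here.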

Additional observations from a re-analysis of the deposited data

Results flagged for a closer look

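In 3 of 60 groups of 4 arrays examined, 1 array stood far from the others, and chance alone would mark about 1 in 20 groups. The control group of *Lypd3* had replicate 4 at -4.45 against a mean of -5.54 for the others, a gap of 0.973 of the group's range. *Cd79a* had control replicate 1 at -5.19 against -5.60 for the others, a gap of 0.899 of the range. *Nanog* had control replicate 2 at -1.38 against -2.83 for the others, a gap of 0.894 of the range, and its log2 difference was -0.95 without that array in place of -1.32.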

How the results depend on the processing

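The directions of *Tex101*, *Lypd4*, *Dmrtc2* and *L3mbtl2* were the same under every alternative that gave a value. With normexp, *Tex101* was at 7.54, *Lypd4* at 3.16 and *Dmrtc2* at 2.25, and 1 sex-body gene was called in place of 3. That alternative changed the input signal, the background model and the offset together, and the cause was not tested. Quantile normalization called 2 LY6/uPAR genes and 2 TEX101 partners in place of 1 each. Without the filter on dim probes 1 neighbour and 0 LY6/uPAR genes were called. There were then more probes to adjust over and larger SEs for the tested members, and the cause was not tested. Among probes above background on all arrays, 0 TEX101 partners, 0 spermatocyte and spermatid markers and 4 feeder markers (7 before) were called, since dim genes were then not tested. That filter removed *Lypd4*, which has no value there, and *Lypd3*, which was not tested, has no difference to vary. At 1.5-fold 4 neighbours were called, and with 10 genes beyond each end 1 was. Leaving out 1 replicate gave 1 to 2 called neighbours (without control replicate 3 *Zfp108* took the place of *Plaur*), 0 to 2 LY6/uPAR genes, 1 to 2 TEX101 partners, 2 to 3 DMRT genes (*Dmrtc1b*, without *L3mbtl2*-KD replicate 1 or 2) and 0 to 1 ESC markers (*Nanog*, without *L3mbtl2*-KD replicate 4), and the cause was not tested. With the replicate block the differences were 8.21 (SE 0.25) for *Tex101*, 5.90 (SE 0.37) for *Lypd4*, 2.57 (SE 0.16) for *Dmrtc2* and -0.09 (SE 0.04) for *Rps19*, and apart from 1 more feeder marker (*S100a4*, also called with slide as a block) it changed no other call of a neighbour or listed gene. Leaving out 1 replicate also gave 2 to 3 sex-body genes and 6 to 8 feeder markers. *S100a4* was among the latter without control replicate 3 or *L3mbtl2*-KD replicate 2. With all arrays its brighter probe differed by -2.09 (SE 1.20, adjusted p = 0.261, limma). *Rps19* lay between -0.17 and -0.02 over all settings. Signal over background limits *Lypd3* and the control level of *Lypd4*.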
